A study of Homo sapiens with 89 samples.

Results

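The genes described here are the enzymes that make and break down polyamines and the proteins that control the pathway: ODC1, AMD1, SRM and SMS for synthesis, SAT1, SMOX and PAOX for breakdown, and OAZ1, OAZ2 and AZIN1 as regulators. They were taken by gene symbol from the 57905 gene rows of the count tables, and all 10 symbols were found in both tables. Polyadenylated RNA was sequenced in 2 human neuroblastoma lines, with 3 libraries in each of 5 groups. IMR-32, a line known for amplified MYCN, carried an shRNA against EXOSC10, a catalytic exonuclease subunit of the nuclear RNA exosome. The shRNA was induced with 1 µg/ml doxycycline in the group called shEXOSC10, and the controls had 0 µg/ml and, per their column names, ethanol. SHEP, a line without MYCN amplification, was grown without MYCN and without doxycycline, or with 1 µg/ml doxycycline to induce wild type MYCN (MYCN WT) or MYCN 3A, a mutant that the labels describe as deficient in RNA binding. MYCN belongs to the MYC family of transcription factors. In both lines the presence of doxycycline and the presence of the induced construct cannot be told apart. The labels do not name the construct in the SHEP cells without MYCN, the number of clones, or the origin of the replicates (separate cultures or not), and every p is therefore about the spread of these libraries only.

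Polyamines are small, positively charged molecules that bind nucleic acids and are needed for growth and for the hypusine modification of the translation factor EIF5A. Ornithine decarboxylase turns ornithine into putrescine, and spermidine synthase and spermine synthase then add aminopropyl groups that come from S-adenosylmethionine through its decarboxylase. Acetylation and oxidation lead back from spermine and spermidine to putrescine, antizymes bind ornithine decarboxylase and send it to the proteasome, and antizyme inhibitor takes the antizymes away. ODC1 is a classic MYC target gene, and the pathway is studied as a drug target in neuroblastoma.

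The IMR-32 libraries held 16394148 to 26193478 counts and the SHEP libraries 11638859 to 15353505. Of the counts from 1 to 10, 65.5 to 67.2% were even numbers in the IMR-32 libraries and 74.2 to 77.1% in the SHEP libraries. How the ends of a read pair were counted was not tested, and counts are not taken as independent molecules. EXOSC10, the check of the IMR-32 labels, fell by 31.1% in the depleted libraries (-0.54 on the log2 scale with SE 0.08, adjusted p = 2.3e-08 in edgeR). Adjusted p-values, except those of DESeq2's Wald test, come from the quasi-likelihood test of edgeR. They carry Benjamini-Hochberg correction over every tested gene of the table. MYCN had at most 10 counts in any of the 9 SHEP libraries, so the deposited table does not check the labels of the MYCN forms, and their level in these cells is not known from it. The lines differed as named in markers of neuroblastoma cell state: the summed level of 7 adrenergic markers was 2430 to 2570 TPM (counts per exon length, scaled to a fixed library sum) in IMR-32 controls and 62.6 to 63.3 TPM in SHEP without MYCN, where TH and DBH were at 0. The 7 mesenchymal markers summed to 190 to 201 and 3030 to 3200 TPM in the same groups. In bulk RNA, fewer cells that express a gene and less of its RNA per cell cannot be told apart.

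The levels of the 10 genes spanned a wide range within each line, with ODC1 and OAZ1 highest and SMOX and PAOX lowest in both lines without doxycycline. These levels are TPM, in which each count is divided by the length of all annotated exon bases of the gene. This sets genes side by side within a line, but that length can exceed the transcript made, which lowers the TPM. OAZ1, for example, has 3457 annotated exon bases in 2 merged blocks. The order of genes therefore holds for these lengths, and transcript forms were not examined. In IMR-32 controls OAZ1 was at 234 ± 9.66 TPM (SD, n = 3) and ODC1 at 229 ± 23.4 TPM, and their ranges overlapped. SMS followed at 94.2 ± 6.70 TPM. OAZ2, SRM, AZIN1 and AMD1 lay between 49.9 and 42.0 TPM, and each overlapped the next in that order. SAT1 (8.14 ± 0.515 TPM), PAOX (5.23 ± 0.647 TPM) and SMOX (4.15 ± 0.421 TPM) were the lowest, without overlap between neighbours. ODC1 and OAZ1 stood above 97.1 and 97.2% of the 17103 tested genes, and SMOX above 22.7%.

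In SHEP without MYCN the order was headed by ODC1 at 733 ± 16.6 TPM, followed by OAZ1 (624 ± 38.9 TPM), SMS (559 ± 10.8 TPM) and SRM (477 ± 7.82 TPM), with no overlap between neighbours. AMD1 was at 155 TPM (144 to 169 TPM) and AZIN1 at 116 ± 4.49 TPM. OAZ2 (41.7 ± 3.52 TPM) and SAT1 (41.3 ± 2.41 TPM) overlapped, and SMOX was at 10.3 ± 2.61 TPM. PAOX was nearly absent, with 4, 0 and 8 counts without MYCN, 0, 0 and 0 with wild type MYCN, and 0, 3 and 2 with 3A, at or near the 3 counts taken as a floor.

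Between the 2 tables the level of every gene of the set differed, and since the counting settings for IMR-32 are not given in the sources used here, these ratios are descriptions of the tables. SRM was 10.3-fold higher in SHEP without MYCN than in IMR-32 controls, SMS 5.94-fold, SAT1 5.07-fold, AMD1 3.68-fold, ODC1 3.20-fold, OAZ1 2.67-fold, AZIN1 2.65-fold and SMOX 2.48-fold. OAZ2 was lower in SHEP, at 0.836 times its IMR-32 level. PAOX was also lower in SHEP, and its few counts there give no fold. None of these ranges overlapped between the lines, which held for 39.0% (higher in SHEP) and 46.3% (lower in SHEP) of the 12952 genes tested in both tables. The median ratio over those genes was 0.898, and 2.15% of them had a higher ratio than SRM. The line with 1325 to 1420 TPM of MYCN had lower levels of 8 of these genes and higher levels of OAZ2 and PAOX. The part of MYCN in this was not tested. Line and count table go together here, so no test was run between them.

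**Figure D1:**
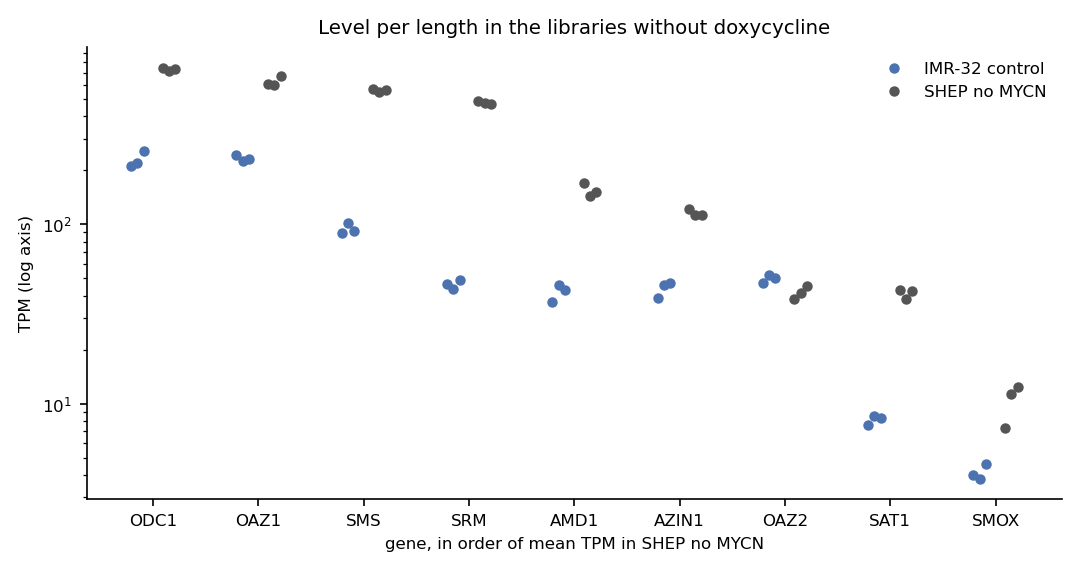
Level of 9 of the genes in the libraries without doxycycline, as TPM on a log axis, for 3 IMR-32 control libraries (blue points) and 3 SHEP libraries without MYCN (grey points), with genes in order of their SHEP mean. PAOX is left out because a SHEP library had 0 counts. SRM shows the widest gap between the lines, and OAZ2 is the gene whose SHEP points lie below those of IMR-32.

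The IMR-32 comparison sets cells with less EXOSC10 transcript against controls, and exosome activity itself was not measured. The ODC1 transcript fell by 42.5%, and those of SMS, SMOX, OAZ1 and OAZ2 fell with it. That of SAT1, the acetyltransferase among the breakdown enzymes, rose by 53.0%. Of the 10 genes, all of which were tested, 1 rose and 5 fell, where 13.5 and 13.7% of the 17103 tested genes did (27.1% in either direction). The groups did not overlap in 7 of the 10, against 38.4% of all genes. The median log2 fold change was -0.16, against -0.0011 over all genes. MYCN, which fell from 1097 ± 15.3 to 599 ± 5.47 CPM (log2 fold change -0.87), and the 7 adrenergic markers, whose sum went from 2430 to 2570 TPM down to 1520 to 1570 TPM, moved in the same libraries. The 7 mesenchymal markers went from 190 to 201 TPM up to 249 to 257 TPM. The 4 Schwann cell markers, with SOX10 at 0, went from 14.6 to 17.2 TPM down to 2.56 to 7.28 TPM. Only 4 of these 7 and 1 of these 4 had enough counts to be tested in IMR-32. The part of these genes in the results was not tested. The levels that follow are CPM, library-size-scaled counts with TMM factors within a line, each in the order of replicates 1 to 3.

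Among the synthesis enzymes, ODC1 (ENSG00000115758, chromosome 2, 10580094 to 10588630, minus strand, hg19), the rate-limiting decarboxylase of the pathway, had 197, 204 and 228 CPM in controls and 120, 127 and 116 CPM after depletion. Every depleted library lay below every control, and the log2 fold change was -0.80 (SE 0.06, adjusted p = 6.0e-20 in edgeR). SMS (ENSG00000102172, chromosome X, 21958691 to 22025798), spermine synthase, had 75.8, 85.4 and 74.6 CPM in controls and 66.7, 64.3 and 65.9 CPM after depletion. The depleted values were again all lower, by -0.26 on the log2 scale (SE 0.07, adjusted p = 0.0025 in edgeR). The call was lost when control replicate 2 was left out (0.0579). SRM (ENSG00000116649, chromosome 1, 11114641 to 11120081), spermidine synthase, had 27.8, 25.8 and 28.0 CPM against 23.6, 25.5 and 27.2 CPM, with overlapping ranges and a 95% interval of the log2 fold change from -0.30 to 0.11. AMD1 (ENSG00000123505, chromosome 6, 111195973 to 111216916), the S-adenosylmethionine decarboxylase, had 41.2, 50.5 and 45.8 CPM in controls and 50.7, 52.7 and 53.3 CPM after depletion. All 3 depleted values of AMD1 were above the controls, the nearest by a narrow margin, but the difference of 0.19 (95% interval 0.03 to 0.35) did not pass (adjusted p = 0.0727 in edgeR). It passed with library totals in place of TMM (0.0402), with the replicate number as a block (0.0322) and without control replicate 2 (0.0265).

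The breakdown enzymes moved apart. SAT1 (ENSG00000130066, chromosome X, 23801290 to 23804343), the acetyltransferase that acts on spermidine and spermine, had 5.98, 6.67 and 6.23 CPM in controls and 10.4, 10.8 and 7.85 CPM after depletion. Depleted replicate 3 was nearer to the controls than the other 2, yet still above all of them, and the log2 fold change was 0.61 (SE 0.18, adjusted p = 0.0048 in edgeR). SMOX (ENSG00000088826, chromosome 20, 4101627 to 4168394), spermine oxidase, had 6.27, 5.89 and 6.90 CPM in controls and 3.77, 4.59 and 4.21 CPM after depletion. It was lower in every depleted library, by -0.60 (SE 0.21, adjusted p = 0.0261 in edgeR), from 76 to 145 counts a library, and lost its call without control replicate 3 or depleted replicate 1 or 3 (0.0641 to 0.0995). PAOX (ENSG00000148832, chromosome 10, 135192695 to 135205198), the oxidase of acetylated polyamines, had 4.37, 3.43 and 3.47 CPM against 2.55, 3.39 and 4.70 CPM, and the depleted values lay on both sides of the controls. Its 95% interval ran from -0.59 to 0.44. PAOX shares 158 exon bases with a gene of the same strand that had up to 1711 counts, so its values are uncertain.

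Of the regulators, both antizymes fell and the antizyme inhibitor did not move beyond its spread. OAZ1 (ENSG00000104904, chromosome 19, 2269485 to 2273487), the main antizyme, had 267, 243 and 241 CPM in controls and 203, 198 and 194 CPM after depletion. The groups were clearly apart, and the log2 difference was -0.34 (SE 0.05, adjusted p = 8.4e-08 in edgeR). OAZ2 (ENSG00000180304, chromosome 15, 64979772 to 64995480), a second antizyme gene, had 114, 125 and 117 CPM against 105, 105 and 94.1 CPM. All depleted values were lower, by -0.23 (SE 0.06, adjusted p = 0.0024 in edgeR), and the call was lost without depleted replicate 3 (0.0562). AZIN1 (ENSG00000155096, chromosome 8, 103838585 to 103906092), the antizyme inhibitor, had 78.8, 91.2 and 90.9 CPM in controls and 84.6, 82.7 and 93.9 CPM after depletion. These ranges overlapped, and the 95% interval of the log2 fold change, -0.13 to 0.14, was narrow.

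**Figure D2:**
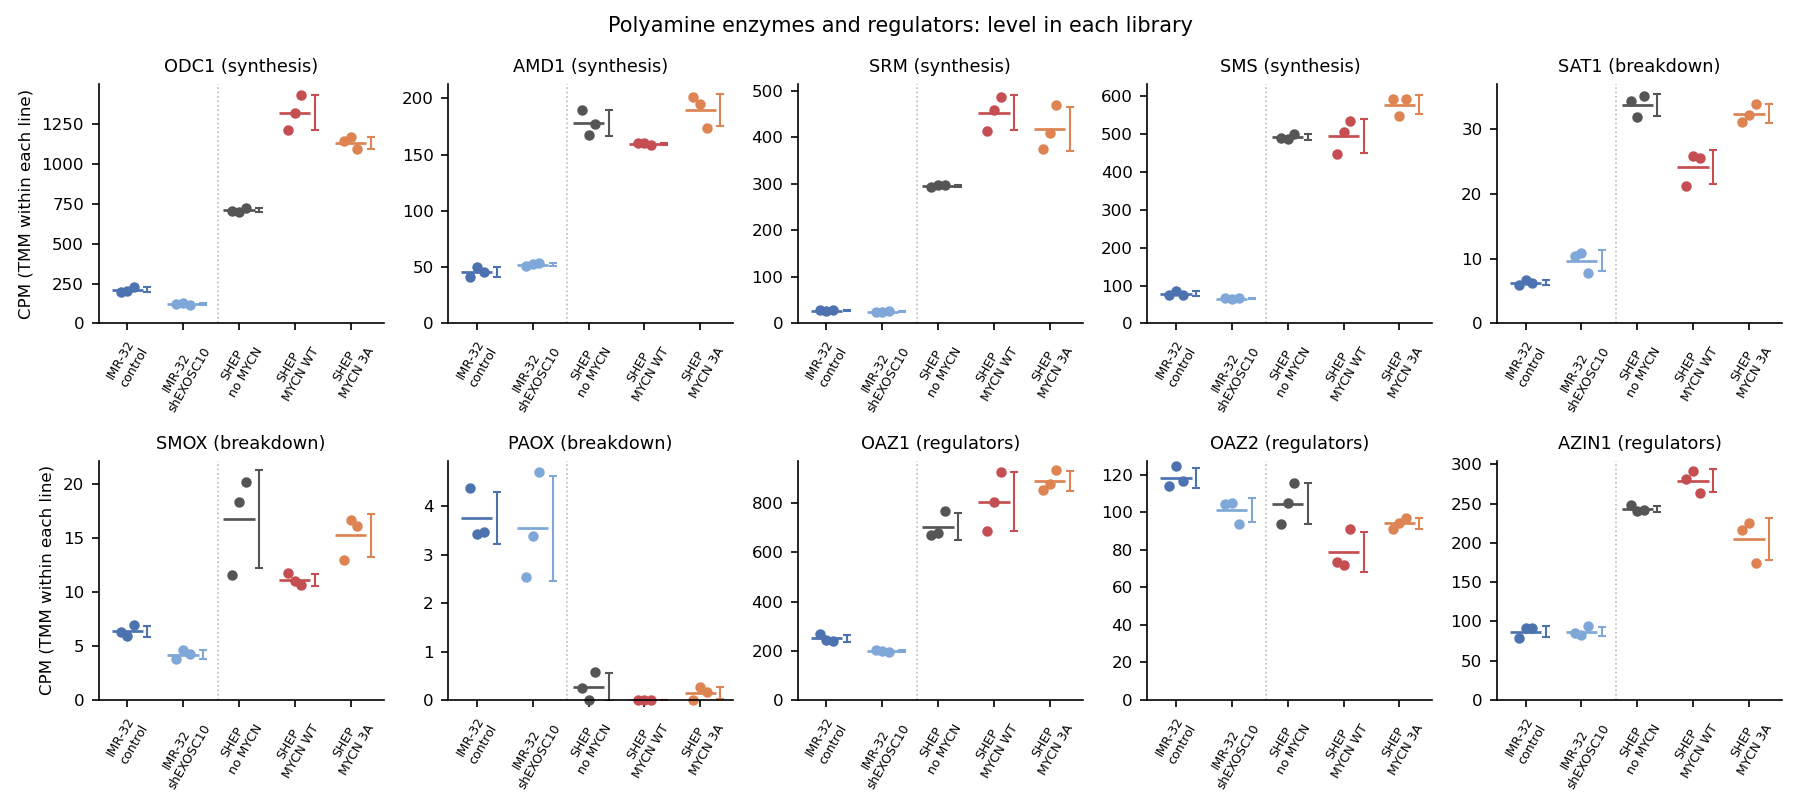
Level of each of the 10 genes in each library as CPM, with an axis from 0 in each panel; points are libraries, horizontal lines group means and bars ± SD (n = 3). TMM scaling was done within each line, so heights can be compared on either side of the dotted line but not across it. ODC1 falls from 197 to 228 CPM to 116 to 127 CPM on EXOSC10 depletion and rises from 700 to 725 CPM to at least 1093 CPM with either MYCN form.

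Induction of MYCN in SHEP asks what each form of the factor does to the transcripts of these cells. ODC1 and SRM rose with wild type MYCN and with 3A. With wild type MYCN the breakdown enzymes SAT1 and SMOX and the antizyme OAZ2 fell, and with 3A SMS and OAZ1 rose and AZIN1 fell. For wild type MYCN, 2 of the 9 tested genes rose and 3 fell, against 10.9 and 11.3% of the 14923 tested genes (22.2% in either direction). For 3A, 4 rose and 1 fell, against 12.7 and 12.8% (25.5% in either direction). The groups did not overlap in 6 of 9 genes with wild type MYCN, where 37.5% of all genes did so, and in 5 of 9 with 3A, where 41.3% did. Median log2 fold changes were 0.01 with wild type MYCN and 0.09 with 3A, against -0.0044 and -0.04 over all genes. PAOX did not pass the filter on low counts. Both comparisons share the libraries without MYCN, so their values are given side by side. Library totals in place of TMM shift all log2 fold changes by -0.07 with wild type MYCN and by -0.10 with 3A, and the share of higher genes among all calls then went from 49.3 to 35.1% and from 49.7 to 29.6%. MYC, the family member that SHEP expresses, was at 10.0 to 12.6 CPM without MYCN, 5.30 to 8.31 CPM with wild type MYCN and 3.00 to 4.83 CPM with 3A, and the 7 mesenchymal markers summed to 3920 to 4160 TPM with wild type MYCN and 2780 to 2930 TPM with 3A. Their part in the results was not tested.

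ODC1 had 707, 700 and 725 CPM without MYCN, 1212, 1322 and 1432 CPM with wild type MYCN and 1142, 1168 and 1093 CPM with 3A. Both induced groups lay far above the libraries without MYCN, and the lowest wild type value was above the highest 3A value. The log2 fold change was 0.90 with wild type MYCN (SE 0.08, adjusted p = 4.9e-08 in edgeR) and 0.67 with 3A (SE 0.08, adjusted p = 8.7e-06 in edgeR). SRM had 294, 297 and 297 CPM without MYCN, 414, 458 and 487 CPM with wild type MYCN and 374, 409 and 469 CPM with 3A. Its induced groups overlapped each other and not the libraries without MYCN, which were almost alike. The log2 fold change of SRM was 0.62 with wild type MYCN (SE 0.09, adjusted p = 2.1e-05 in edgeR) and 0.50 with 3A (SE 0.09, adjusted p = 3.9e-04 in edgeR).

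Since ODC1 and SRM are the genes that rose with both MYCN forms, their promoters are shown, with the E-box CACGTG, the sequence that MYC factors bind, in capitals in SRM and in the short ODC1 stretches. The longer ODC1 promoter has in capitals a CACGCGTG, in which the variant CACGCG reads on both strands with an overlap. All are RefSeq sequences on GRCh38.p14, 5′ to 3′ on the gene's strand, and each long run is the 250 bases before an annotated start: chr1:11060019-11060268, minus strand, for SRM and chr2:10448328-10448577, minus strand, for the upstream start of ODC1. The short ODC1 stretches surround the E-boxes near its other annotated start, at chr2:10448024-10448053 and chr2:10447990-10448019, minus strand.
SRM promoter: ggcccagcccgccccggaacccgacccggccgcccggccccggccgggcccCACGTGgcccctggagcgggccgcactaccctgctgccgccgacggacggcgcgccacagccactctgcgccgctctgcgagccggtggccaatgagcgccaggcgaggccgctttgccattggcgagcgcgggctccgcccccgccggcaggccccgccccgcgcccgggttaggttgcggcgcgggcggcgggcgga
ODC1 promoter: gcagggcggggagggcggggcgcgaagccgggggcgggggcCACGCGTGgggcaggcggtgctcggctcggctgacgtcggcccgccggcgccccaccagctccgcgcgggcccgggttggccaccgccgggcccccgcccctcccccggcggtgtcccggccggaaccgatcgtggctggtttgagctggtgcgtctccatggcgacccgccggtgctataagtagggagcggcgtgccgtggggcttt
ODC1 E-box 1: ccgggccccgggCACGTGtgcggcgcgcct
ODC1 E-box 2: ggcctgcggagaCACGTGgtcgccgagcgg
The SRM E-box starts 199 bases before the start site, and those of ODC1 lie 29 bases before and at base 6 after the site. In windows from 250 bases before to 50 after a start, CACGTG was found on either strand in 7.26% of 35116 promoters, and in 0.664% at least 2 times. CACGCG was found in 11.4% and TGATGNAA, the response element of C/EBP and ATF factors, in 3.62%. Of the 10 genes, 7 had such a window. AMD1, SMS, SAT1, OAZ1 and OAZ2 had none of the 3 motifs in theirs, which says only that these letters are not in these windows. Binding at the motifs of SRM and ODC1 was not examined here, and the part of these motifs in the rises was not tested. SMOX, PAOX and AZIN1 are named here without a sequence.

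The other synthesis enzymes changed less in SHEP. SMS had 489, 488 and 501 CPM without MYCN, 446, 506 and 535 CPM with wild type MYCN and 594, 548 and 592 CPM with 3A. The wild type libraries lay on both sides of those without MYCN, with a 95% interval from -0.16 to 0.18, and those with 3A were all higher. The rise with 3A was 0.23 (SE 0.08, adjusted p = 0.0419 in edgeR), and its call was lost with library totals (0.177), with no filter on low counts (0.0643) and without each of the 6 libraries in turn (0.0554 to 0.132). AMD1 had 190, 167 and 177 CPM without MYCN, 160, 160 and 159 CPM with wild type MYCN and 201, 195 and 174 CPM with 3A. Wild type values of AMD1 were all below the others, but neither difference from the libraries without MYCN passed, at -0.16 (95% interval -0.33 to 0.01) and 0.09 (-0.08 to 0.26).

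Of the breakdown enzymes, SAT1 had 34.3, 31.8 and 35.1 CPM without MYCN, 21.2, 25.9 and 25.5 CPM with wild type MYCN and 31.1, 32.2 and 33.9 CPM with 3A. The wild type group was below both of the others without overlap, and 3A overlapped the libraries without MYCN. SAT1 changed by -0.48 with wild type MYCN (SE 0.12, adjusted p = 0.0050 in edgeR), and with 3A the difference was -0.06 (95% interval -0.30 to 0.19). SMOX had 11.6, 18.4 and 20.2 CPM without MYCN, 11.8, 11.03 and 10.7 CPM with wild type MYCN and 12.98, 16.7 and 16.1 CPM with 3A. Replicate 1 without MYCN was as low as the wild type libraries, so those groups overlapped. The change of SMOX with wild type MYCN was -0.58 (SE 0.18, adjusted p = 0.0233 in edgeR) and was not called without replicate 2 or 3 of either group (0.0555 to 0.159), and with 3A the difference was -0.13 (95% interval -0.50 to 0.24).

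Of the regulators, OAZ1 had 669, 679 and 767 CPM without MYCN, 687, 806 and 926 CPM with wild type MYCN and 854, 879 and 935 CPM with 3A. The wild type libraries spanned the widest range, and the 3A libraries were all above those without MYCN. OAZ1 rose by 0.33 with 3A (SE 0.10, adjusted p = 0.0133 in edgeR), which did not pass without replicate 1 or 2 of the libraries lacking MYCN or 3A replicate 3 (0.0604 to 0.0763). With wild type MYCN its difference was 0.19 (95% interval -0.0043 to 0.39), which passed without wild type replicate 1 (0.0087) and with the block (0.0288). OAZ2 had 93.7, 105 and 115 CPM without MYCN, 73.6, 71.9 and 91.2 CPM with wild type MYCN and 91.1, 94.6 and 96.9 CPM with 3A. It was lower in all wild type libraries, by -0.41 (SE 0.10, adjusted p = 0.0049 in edgeR), which did not pass without wild type replicate 2 (0.0656). With 3A the difference of OAZ2 was -0.15 (95% interval -0.36 to 0.06). AZIN1 had 248, 240 and 241 CPM without MYCN, 282, 292 and 264 CPM with wild type MYCN and 216, 225 and 174 CPM with 3A. The groups of AZIN1 were fully apart, wild type above and 3A below. Its change with 3A was -0.25 (SE 0.09, adjusted p = 0.0452 in edgeR), which was lost with the DESeq2 size factors (0.0616), in DESeq2's Wald test (0.0507) and without any replicate lacking MYCN or 3A replicate 3 (0.0886 to 0.245). The difference with wild type MYCN was 0.20 (95% interval 0.02 to 0.38) and did not pass (adjusted p = 0.113 in edgeR), except with the block (0.0322).

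**Figure D3:**
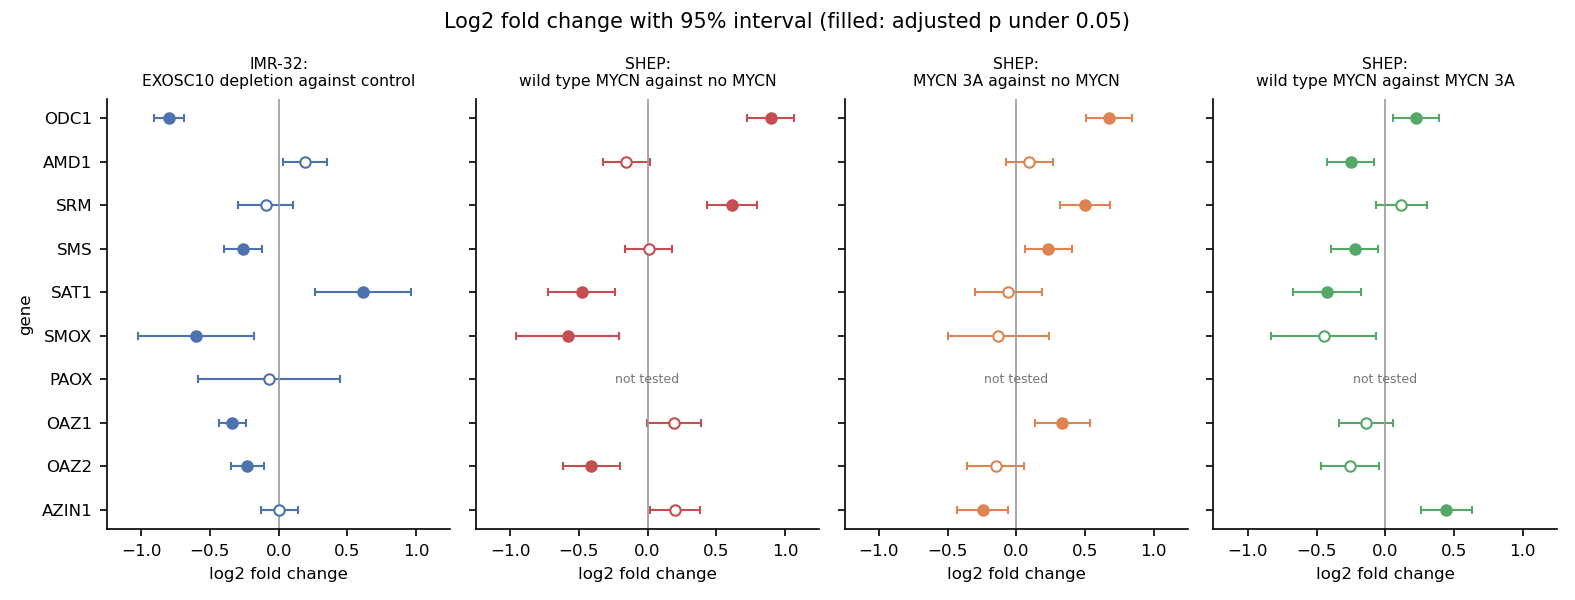
Log2 fold change of the 10 genes in the 4 comparisons, with 95% intervals; filled points passed an adjusted p of 0.05 over all genes in edgeR and open points did not. ODC1 is at -0.80 on EXOSC10 depletion and at 0.90 and 0.67 with the MYCN forms, AZIN1 is at 0.45 between the forms, the largest of the 5 called differences there, and PAOX was not tested in SHEP.

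The contrast of wild type MYCN with 3A tests where the forms differ. AZIN1 and ODC1 were higher with wild type MYCN, and AMD1, SMS and SAT1 were higher with 3A. That is 2 higher and 3 lower of 9 tested genes, against 15.8 and 14.5% of all genes (30.3% in either direction), and the groups did not overlap in 6 of the 9, against 40.4%. The median was -0.22, against 0.0030 over all genes. The AZIN1 transcript was 36.2% higher with wild type MYCN (a log2 difference of 0.45 with SE 0.09, adjusted p = 6.5e-04 in edgeR). SAT1 differed by -0.42 (SE 0.12, adjusted p = 0.0102 in edgeR), and without wild type replicate 1 it missed the threshold (0.0548). ODC1 was higher with wild type MYCN by 0.22 (SE 0.08, adjusted p = 0.0425 in edgeR). That call was lost with the DESeq2 size factors (0.0556), with no filter (0.0540), in a fit of the 6 libraries alone (0.0900) and without any replicate of the forms other than wild type replicate 1 (0.0731 to 0.146). AMD1 differed by -0.25 (SE 0.08, adjusted p = 0.0256 in edgeR) and SMS by -0.22 (SE 0.08, adjusted p = 0.0444 in edgeR). Both were lost with no filter (0.0511 and 0.0773) and in the fit of 6 libraries (0.0556 and 0.102). AMD1 was also lost with library totals (0.0515) and without wild type replicate 2 or 3A replicate 1 or 2 (at most 0.0919), and SMS without any replicate but wild type replicate 3 (0.0555 to 0.155).

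The remaining genes were not shown to differ between the forms. The interval was -0.06 to 0.30 for SRM, -0.34 to 0.06 for OAZ1, -0.83 to -0.07 for SMOX and -0.47 to -0.05 for OAZ2. SMOX (adjusted p = 0.0671 in edgeR) and OAZ2 (adjusted p = 0.0590 in edgeR) passed with the block (0.0412 and 0.0107), SMOX also without 3A replicate 1 (0.0413) and OAZ2 without wild type replicate 3 (0.0068). OAZ1 passed without wild type replicate 3 (0.0373). EXOSC10 itself was at 82.6 to 106 CPM with wild type MYCN and 57.1 to 64.9 CPM with 3A, so the forms also differed in the gene that was depleted in IMR-32 (0.60 on the log2 scale with SE 0.11, adjusted p = 2.5e-04 in edgeR), and its part in the differences was not tested.

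Sums over the synthesis enzymes are given as descriptions, since ODC1 makes up a large share of them and the other members did not all move its way. ODC1, AMD1, SRM and SMS together had 383, 412 and 439 TPM in IMR-32 controls and 297, 305 and 300 TPM after depletion, without overlap. In SHEP they summed to 1923 ± 46.3 TPM without MYCN, 2666 ± 67.7 TPM with wild type MYCN and 2381 ± 37.4 TPM with 3A (SD, n = 3 each), and the 3 groups were apart. ODC1 made up 55.5% of that sum in controls and 43.7% after depletion, and 38.1, 48.8 and 43.9% in the SHEP groups in the same order. The breakdown enzymes summed to 17.1 to 17.9 TPM in controls and 19.4 to 21.6 TPM after depletion, and to 49.8 to 55.3, 33.8 to 36.3 and 41.4 to 45.7 TPM in the SHEP groups. ODC1 and SAT1 had the highest mean level within their sums in every group, and the sums were not tested.

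Ratios within a library do not depend on the scaling between libraries. Their size does depend on the annotated exon lengths, which are the same for all libraries. ODC1 per OAZ1, the enzyme over its antizyme, was 0.860, 0.977 and 1.10 in IMR-32 controls and 0.687, 0.747 and 0.697 after depletion. The ratio was lower in all depleted libraries although both genes fell. In SHEP it was 1.10 to 1.23 without MYCN, 1.80 to 2.05 with wild type MYCN and 1.36 to 1.56 with 3A, 3 ranges that did not overlap. SRM per SMS was 0.842 to 0.864 without MYCN, 1.29 to 1.32 with wild type MYCN and 0.896 to 1.12 with 3A, so here too the 3A libraries lay between the others. ODC1 per AZIN1 went from 4.85 to 5.44 in controls to 2.68 to 3.32 after depletion, and from 6.18 to 6.50 without MYCN to 9.31 to 11.8 with wild type MYCN and 11.3 to 13.6 with 3A, where the forms overlapped. These are ratios of transcripts and say nothing of protein or enzyme activity.

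**Figure D4:**
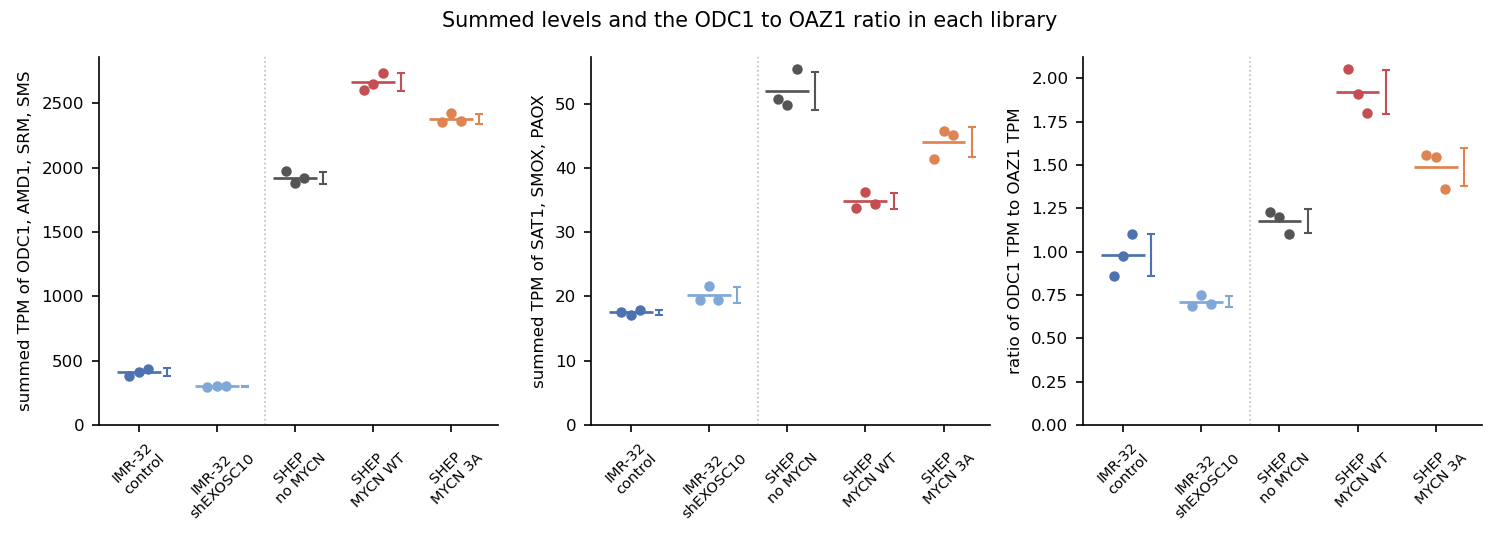
Summed TPM of the synthesis enzymes (left), summed TPM of the breakdown enzymes (middle) and the ratio of ODC1 TPM to OAZ1 TPM (right) in each library; points are libraries, horizontal lines group means and bars ± SD (n = 3), with axes from 0. In SHEP the 3A libraries lie between those without MYCN and those with wild type MYCN in all 3 panels, and in IMR-32 the ratio falls from at least 0.860 to at most 0.747.

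Across the lines, which share no library, 4 of the 9 genes tested in both were called on EXOSC10 depletion and with wild type MYCN. ODC1 fell in the one and rose in the other and SAT1 did the reverse, while SMOX and OAZ2 fell in both. Over all genes, 1066 of the 12952 tested in both were called in both comparisons, and 62.3% of them had opposite signs. ODC1, SMS and OAZ1, 3 of the 9, were called on depletion and with 3A, all lower in the first and higher in the second. For that pair of comparisons, 1276 of the 12952 genes were called in both, and 72.2% of them had opposite signs. Opposite signs were thus common over all genes, and nothing particular to these few genes is read from theirs.

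Neighbouring steps of metabolism were followed with lists of related genes. Among 8 tested genes of ornithine and arginine supply, 5 fell and 1 rose on EXOSC10 depletion, where 13.7 and 13.5% of all genes did, with a median of -0.48 against -0.0011 over all genes. ASS1, argininosuccinate synthase, fell from 251 to 267 CPM down to 80.6 to 86.0 CPM (log2 fold change -1.65). SLC7A1, the arginine transporter, changed by -0.69 and GATM, which uses arginine to start creatine synthesis, by -0.78. In SHEP 6 of the list were tested. With wild type MYCN 1 rose and 1 fell, where 22.2% of all genes were called: ALDH18A1, which makes the proline and ornithine precursor, rose by 0.68 and ASL, argininosuccinate lyase, changed by -0.72, with a list median of 0.07 against -0.0044. With 3A edgeR called 0 of the 6, against 25.5% of all genes, while 2 had an unadjusted p under 0.05 and DESeq2 called 1, with a median of 0.08 against -0.04. Between the forms 2 were higher with wild type and 1 lower: ALDH18A1 differed by 0.49, SLC7A1 by 0.58 and ASL by -0.84, with a median of 0.14 against 0.0030 and 30.3% of all genes called. Each named difference had an adjusted p of at most 7.9e-04 in edgeR.

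Of the polyamine transport list, 4 genes rose and 2 fell of 7 tested on depletion (median 0.22), 2 rose and 5 fell of 10 with wild type MYCN (median -0.08), and 1 rose and 4 fell of 10 with 3A (median -0.07). Of all genes 27.1, 22.2 and 25.5% were called in these comparisons, with medians of -0.0011, -0.0044 and -0.04. SLC3A2, a heavy chain of amino acid transporters linked to polyamine export, went from 395 to 425 CPM down to 224 to 235 CPM on depletion (log2 fold change -0.86), and rose by 0.73 with wild type MYCN and 0.49 with 3A. GPC1, a glypican linked to polyamine uptake, moved by 0.39, -0.49 and -0.34 in the same order, and SLC47A1, an organic cation exporter, by -0.79 on depletion. CAV1, caveolin, was at 0 counts in all 6 IMR-32 libraries and changed by -0.54 and -0.53 with the MYCN forms. Between the forms 3 were higher with wild type MYCN and 1 lower of 10 (median -0.01), against 30.3% of all genes and a median of 0.0030, among them SLC18B1, a vesicular polyamine transporter, at -1.18, ATP13A3, an uptake transporter, at 0.96 and SLC47A1 at 0.74.

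Of 4 genes of hypusine synthesis, which uses spermidine, EIF5A and EIF5A2 fell on depletion, by 0.27 and 0.53 on the log2 scale (list median -0.17, with 27.1% of all genes called and a median of -0.0011). The groups of EIF5A2 overlapped, at 95 to 188 counts a library (adjusted p = 0.0366 in edgeR), and DESeq2 called 1 of the 4. With wild type MYCN edgeR called 0 of the 4 (median 0.01, with 22.2% and -0.0044 over all genes), while 1 had an unadjusted p under 0.05 and DESeq2 called 0. EIF5A and the hydroxylase DOHH rose by 0.40 and 0.56 with 3A (median 0.21, with 25.5% and -0.04 over all genes). EIF5A was lower with wild type MYCN than with 3A by -0.34 (median -0.16, with 30.3% and 0.0030 over all genes). Of 11 tested genes of the methionine cycle and salvage, 3 rose and 2 fell on depletion (median -0.08), with MAT2A, the synthase of S-adenosylmethionine, at -0.33, AHCY at -0.28 and MTR at 0.30. These counts are read against the same shares and medians over all genes as for hypusine synthesis. Of 12 in SHEP, 3 rose and 0 fell with wild type MYCN (median 0.12), where 10.9 and 11.3% of all genes did. The 3 that rose were APIP at 0.56, ENOPH1 at 0.41 and MAT2A at 0.38. With 3A, 3 rose and 1 fell (median 0.02), among them APIP at 0.50, AHCY at 0.30 and MTR at -0.52. Between the forms 2 were higher with wild type MYCN and 1 lower (median 0.10): MAT2A at 0.35, MTR at 0.38 and AHCY at -0.31. Of the 3 paralogs OAZ3, AZIN2 and SAT2, edgeR and DESeq2 called 0 on depletion and 0 with 3A (medians 0.09 and 0.14). Over all genes edgeR called 27.1 and 25.5% there, with medians of -0.0011 and -0.04. With wild type MYCN and between the forms 1 was called (medians -0.72 and -0.86), where 22.2 and 30.3% of all genes were. That was SAT2, which changed by -0.72 with wild type MYCN and was lower than with 3A by -0.86 (adjusted p = 4.5e-05 in edgeR). AZIN2, at -0.89 and -0.91, did not pass (adjusted p = 0.0960 and 0.0729 in edgeR). SAT2 had 28.1 to 34.6 CPM without MYCN, 16.2 to 21.5 CPM with wild type MYCN and 31.9 to 36.2 CPM with 3A, a pattern in which the wild type group stood apart, as it did for SAT1.

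The genes whose log2 CPM ran most like that of ODC1 over the 9 SHEP libraries were LINC00839 (Pearson r = 0.994), SERBP1 (r = 0.992) and BCCIP (r = 0.988). Most like SMS were SRI (r = 0.994), SEM1 (r = 0.989) and RPL38 (r = 0.987). Most like SAT1 were TPM1 (r = 0.975), GABARAP (r = 0.971) and NUCKS1 (r = 0.969). These were the highest of all genes with a symbol and a mean log2 CPM of at least 3. The 9 points share their libraries and scaling, and the values are descriptions with no test.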

How the data were processed

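The authors deposited 2 tables of raw counts per gene, 1 for each line, made with STAR 2.7.10a and featureCounts 2.0.3 on hg19 with Ensembl 87 annotation, per the submitters' processing notes. Per the file headers, SHEP reads were counted by strand, with reads on overlapping genes counted for each; the settings for IMR-32 are not given in the sources used here. The names of the IMR-32 columns (agent and replicate) tied them to samples, although 4sU samples have similar labels, and 74 of 89 samples were not analysed here. Genes were filtered with filterByExpr, scaled by TMM and fitted within each table in edgeR 4.0.16 (R 4.3.3, limma 3.58.1) with the quasi-likelihood test, all 9 SHEP libraries in 1 fit, and p was adjusted by Benjamini-Hochberg over the 17103 and 14923 tested genes. A gene passed at an adjusted p under 0.05. CPM used a prior count of 2 for logs, and TPM the deposited exon lengths. DESeq2 1.42.0, other scalings, no filter, halved counts, fits of 6 libraries, the replicate block and leaving out each library were alternatives. The fit was tested on data simulated for the depletion and the wild type MYCN comparisons. It recovered 56.5 and 44.4% of log2 changes of 0.5, 78.6 and 74.0% of changes of 1, and 98.5 and 96.7% of changes of 2. A small change that did not pass is therefore not shown to be absent. Replicates correlated at 0.981 to 0.987 and none were identical. The members, lists and tests were chosen with earlier results of these data known. Named were the 10 genes, EXOSC10, MYCN and MYC, up to 3 called genes of each list with the smallest p, and the genes most like ODC1 and at most 3 other members. A planned comparison of protein sequences was not run. Figures and promoter searches used Python 3.11.15.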

Additional observations from a re-analysis of the deposited data

How the results depend on the processing

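No alternative reversed the direction of a called gene, and 9 of the 21 calls of the polyamine genes over the 4 comparisons held in every alternative run: ODC1, SAT1 and OAZ1 on depletion, ODC1, SRM and SAT1 with wild type MYCN, ODC1 and SRM with 3A, and AZIN1 between the forms. The other 12 were lost in at least 1, and 6 of 16 genes tested and not called passed in some. Leaving out 1 library at a time gave 4 to 6 of the genes called on depletion (main 6), 3 to 6 with wild type MYCN (main 5), 2 to 4 with 3A (main 5) and 2 to 6 between the forms (main 5). Over all genes the same runs gave 3810 to 4386 calls on depletion (main 4639), 2313 to 3458 with wild type MYCN (main 3315), 2166 to 3616 with 3A (main 3806) and 3261 to 4901 between the forms (main 4527). The lowest with 3A, 2166 and 2508, came without replicate 1 or 2 of the cells lacking MYCN. Between the forms, 2 of the genes were called with no filter on low counts and 2 in a fit of the 6 libraries compared. Counts over all genes are not given for these runs, so nothing particular to the polyamine genes is read from the lower counts. Their cause was not tested. With the replicate number as a block, 7, 7, 5 and 7 of the genes and 5251, 4184, 4794 and 5414 of all genes were called, in the same order. Same-numbered libraries did not all reach the correlation of 0.1 asked for pairing: their deviations correlated at 0.025 to 0.044 in IMR-32 and -0.033 to 0.14 in SHEP, against -0.031 to -0.012 and -0.13 to 0.062 for different numbers. In IMR-32 every library correlated best with its own number, a hint from the data and not from the labels. PAOX had at most 8 counts in SHEP and was not tested there.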
